A study of Mus musculus with 2 samples.

Results

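The genes described here form the oxygen-sensing arm of the cell: the hypoxia-inducible factor (HIF) subunits Hif1a, Epas1 and Arnt, the tumour suppressor gene Vhl, the prolyl hydroxylase genes Egln1, Egln2 and Egln3, and 3 direct HIF targets outside glycolysis, Bnip3, Ddit4 and Adm. They were chosen by name, with earlier results of these data known. Every probe set that the platform annotation assigned to a single mouse gene with one of these symbols was taken, which gave 22 probe sets for 10 genes, of 45101 probe sets and 18193 genes on the array. The cells were primary mouse osteoblasts at day 10 of differentiation with beta-glycerophosphate at 10 mM and ascorbic acid at 50 µg/ml. They were serum-starved overnight and then held for 6 hours in conditioned medium. The labels also list fetal calf serum at 10% for both cultures. One culture received medium of PC-3 cells and the other medium of MDA-PCa2b cells, both human prostate cancer lines derived from bone metastases. The study asked how factors from these lines alter transcripts of bone-forming cells. RNA of each culture was read on 1 Affymetrix mouse array, so there were 2 arrays and no replicates. No culture free of tumour-cell medium was analysed here, so "higher" and "lower" compare the PC-3 culture with the MDA-PCa2b culture. The labels do not give the oxygen level of the cultures or the mouse strain.

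In well-oxygenated cells the Egln enzymes hydroxylate HIF-alpha proteins on proline, the Vhl protein then binds them, and they are destroyed by the proteasome. When oxygen or enzyme activity is low, HIF-alpha proteins persist, pair with Arnt and switch on genes that carry the core letters ACGTG or GCGTG. Control of HIF-alpha acts mainly on the protein, which these arrays do not measure. In osteoblasts the pathway is known for coupling bone formation to blood vessel growth.

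All 10 genes gave a signal above the floor on both arrays by their brightest probe set. The floor was the 50th percentile of each array, a signal of 57.7 with PC-3 medium and 56.7 with MDA-PCa2b medium, and a probe set below it on 1 array gives a ratio only as a bound. Epas1, Egln3, Adm and Bnip3, 4 of the 10, were higher with PC-3 medium by a factor of 2 or more, against 1.9% of the 10649 genes measured on both arrays. None of the 10 was lower by that factor, against 1.68%. At 3-fold the count was 2, Epas1 and Egln3, against 0.742%. At 1.5-fold it was 5 higher, against 5.18%, and 0 lower, against 6.23%. Ddit4 was the gene between 1.5-fold and 2-fold, and Hif1a, Arnt, Vhl, Egln1 and Egln2 lay within 1.5-fold by their brightest probe sets, as did 88.6% of measured genes. The median log2 ratio of the 10 genes was 0.63, and that of all measured genes was -0.04. A ratio above 0 was found for 9 of the 10 genes and for 44.1% of all measured genes. Because the genes were chosen with earlier results of these data known, these shares describe the set and test nothing.

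With 1 array per medium no p-value, SD or standard error between media could be computed. The only available yardstick was the scatter of log2 ratios between probe sets of the same gene, which had an SD of 0.24 over 4924 genes. It was 0.30 for probe sets with a mean signal under 220.2, 0.23 for those in the middle tertile of signal and 0.18 for those over 656.0. It describes how well probe sets of these 2 hybridisations repeat each other and says nothing of the spread between cultures; probe sets of one gene read the same RNA. In bulk RNA, fewer cells of a type and less RNA per cell cannot be told apart.

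**Figure D1:**
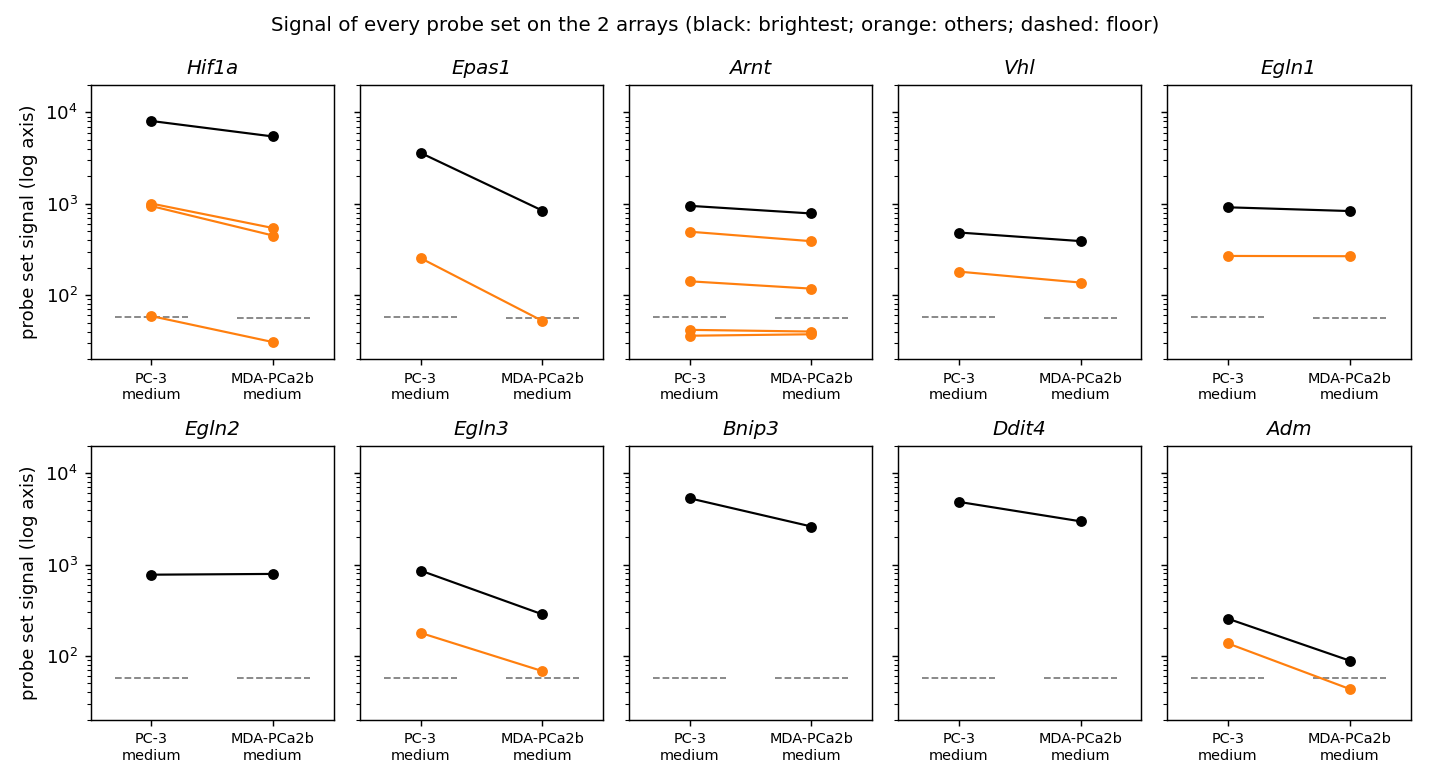
Signal of each of the 22 probe sets on both arrays (linear signal on a log axis), 1 panel per gene; black marks the brightest probe set, orange the others and the dashed lines the floor of each array. The lines slope down toward MDA-PCa2b medium in the panels of Epas1, Egln3, Adm and Bnip3 and are nearly flat for Egln1 and Egln2.

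Among the HIF-alpha genes, Epas1, which encodes HIF-2 alpha, had the largest ratio of the 10 genes. Its brightest probe set (1435436_at) gave a signal of 3611 with PC-3 medium and 844 with MDA-PCa2b medium, 4.28-fold higher. The second probe set (1449888_at) gave 254.7 with PC-3 medium and 52.4, below the floor, with MDA-PCa2b medium, which makes it at least 4.49-fold higher. Both probe sets thus gave a difference of more than 4-fold. The log2 ratio of 2.10 was 8.63 times the probe set SD and ranked 31 among the 10649 measured genes, counted from the highest.

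Hif1a, which encodes HIF-1 alpha, was also higher, by an amount that differed between its probe sets. Its brightest probe set (1427418_a_at) gave 8060 with PC-3 medium and 5456 with MDA-PCa2b medium, 1.48-fold higher, a log2 ratio of 0.56. The next (1416035_at) gave 1006 with PC-3 medium and 542.9 with MDA-PCa2b medium, 1.85-fold higher. Another (1448183_a_at) gave 945.1 with PC-3 medium and 449.3 with MDA-PCa2b medium, 2.10-fold higher. All 3 pointed the same way, but the ratio of the brightest was the smallest, and the log2 ratios spanned 0.56 to 1.07. The last probe set (1431981_at) lay at 59.0 with PC-3 medium, just above the floor, and at 30.6 with MDA-PCa2b medium, below it, so that its ratio could not be measured.

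Arnt, the shared beta subunit that both HIF-alpha proteins need to bind DNA, differed little. Its brightest probe set (1437042_at) gave 950.2 with PC-3 medium and 783.8 with MDA-PCa2b medium, a log2 ratio of 0.28. The next (1419996_s_at) gave 495.0 with PC-3 medium and 389.8 with MDA-PCa2b medium, a log2 ratio of 0.34. Another (1421721_a_at) gave 141.8 with PC-3 medium and 117.9 with MDA-PCa2b medium, a log2 ratio of 0.27. The 3 values were close to each other and only slightly above the probe set SD of 0.24. Its remaining 2 probe sets were below the floor on both arrays.

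Vhl, the substrate-binding subunit of the ubiquitin ligase that recognises hydroxylated HIF-alpha, gave 485.1 with PC-3 medium and 390.7 with MDA-PCa2b medium by its brightest probe set (1434708_at), a log2 ratio of 0.31. The second (1421071_at) gave 181.0 with PC-3 medium and 137.4 with MDA-PCa2b medium, a log2 ratio of 0.40. Both were slightly higher with PC-3 medium, by amounts not far above the probe set scatter.

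The 3 prolyl hydroxylase genes had unlike ratios. Egln3 encodes PHD3, whose gene is itself a HIF target in other cells. Its brightest probe set (1418649_at) gave 859.8 with PC-3 medium and 285.6 with MDA-PCa2b medium, 3.01-fold higher. The second (1418648_at) gave 178.7 with PC-3 medium and 68.3 with MDA-PCa2b medium, 2.62-fold higher. The log2 ratios of 1.59 and 1.39 differed from each other by less than the probe set SD, and the gene ranked 79 of 10649. The second probe set lay only slightly above the floor in the MDA-PCa2b culture.

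Egln1 encodes PHD2, the main HIF hydroxylase of most cells. Its brightest probe set (1423785_at) gave 915.5 with PC-3 medium and 833.3 with MDA-PCa2b medium, a log2 ratio of 0.14. Its second (1451110_at) gave 268.7 with PC-3 medium and 266.9 with MDA-PCa2b medium, a log2 ratio of 0.01. Egln2, which encodes PHD1, gave 774.7 with PC-3 medium and 789.6 with MDA-PCa2b medium by its single probe set (1416533_at), a log2 ratio of -0.03. For both genes the difference was smaller than the probe set SD.

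Adm encodes adrenomedullin, a secreted vasodilator peptide that also stimulates osteoblast growth in culture. Its brighter probe set (1447839_x_at) gave 255.3 with PC-3 medium and 88.8 with MDA-PCa2b medium, 2.87-fold higher, and ranked 84 of 10649. Probes of this set can also match other transcripts, as the x in its name marks. The other probe set (1416077_at), which carries no such mark, gave 136.9 with PC-3 medium and 43.5 with MDA-PCa2b medium, below the floor, and was at least 2.41-fold higher. Both probe sets were above 2-fold. Both probe sets had a mean signal under 220.2, the range in which the scatter between probe sets was greatest.

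Bnip3 encodes a mitochondrial outer membrane receptor for mitophagy, the removal of mitochondria by autophagy. Its single probe set (1422470_at) gave 5311 with PC-3 medium and 2609 with MDA-PCa2b medium, 2.04-fold higher. The log2 ratio of 1.03 sat just above the 2-fold line and was 4.22 times the probe set SD. Ddit4 encodes REDD1, an inhibitor of the growth kinase complex mTORC1 that is also induced by glucocorticoids and by amino acid or ER stress. Its single probe set (1428306_at) gave 4853 with PC-3 medium and 2974 with MDA-PCa2b medium, 1.63-fold higher. The log2 ratio of 0.71 was below the 2-fold line and ranked 368 of 10649.

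**Figure D2:**
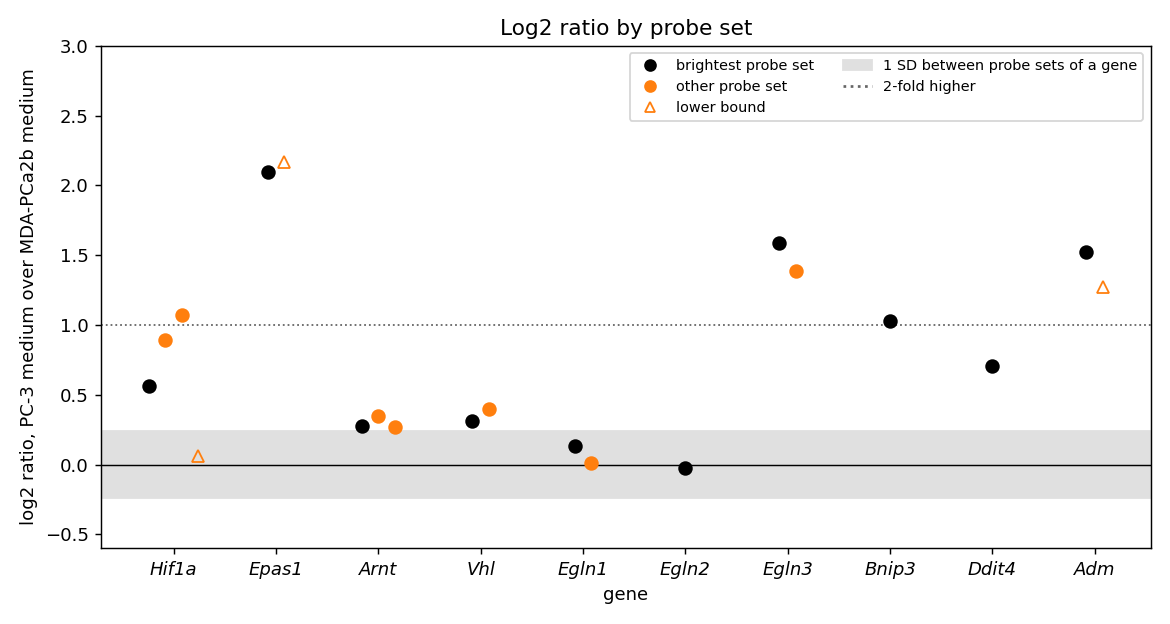
Log2 ratio of PC-3 medium over MDA-PCa2b medium for each probe set above the floor on at least 1 array; filled black circles are the brightest probe set, orange circles the others, open triangles lower bounds, the grey band 1 SD (0.24) of the scatter between probe sets of a gene and the dotted line 2-fold. Epas1, Egln3 and Adm lie above the 2-fold line by both of their probe sets, and Egln1 and Egln2 lie inside the band.

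Ordered by log2 ratio the genes ran Epas1 (2.10), Egln3 (1.59), Adm (1.52), Bnip3 (1.03), Ddit4 (0.71), Hif1a (0.56), Vhl (0.31), Arnt (0.28), Egln1 (0.14) and Egln2 (-0.03). The scatter of a difference between 2 such ratios, 1 SD taken from probe sets of the same gene, was 0.34. Epas1 was above Egln3 by 0.51 and Adm above Bnip3 by 0.50, both more than this SD. Adm lay in the range of low signal, where the scatter was greater. The order was not tested between cultures. Each other neighbouring pair in the order differed by less than 0.34. Over probe sets, 17 of the 22 were above both floors, and 16 of the 17 had a ratio above 0. By 2-fold or more 6 of these 17 were higher, against 1.95% of 18778 probe sets measured on the array. Several of the 17 read the same gene in the same RNA, so these counts add no evidence to the counts by gene. No gene is named here for having a pattern like these, because 2 arrays give a single ratio per probe set.

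**Figure D3:**
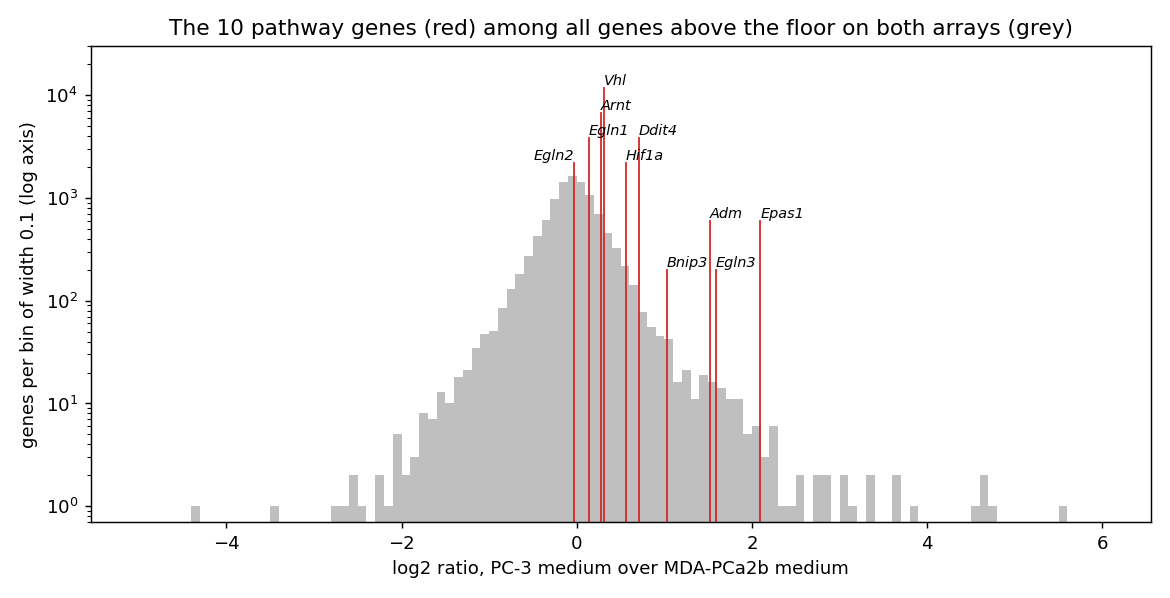
Histogram of the log2 ratios of all 10649 measured genes (bins of width 0.1, counts on a log axis), with the 10 genes as red lines. Epas1, Egln3, Adm and Bnip3 lie in the right tail beyond 1, and Egln2 lies at the centre.

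Promoter sequences are given for Egln3, Adm, Bnip3 and Ddit4, named above as HIF targets, and for Egln1, whose signal differed little between the media. Whether HIF acts on Egln1, or through sites inside any of these windows, was not tested. Each line holds the 250 bases before the annotated start in RefSeq, build GRCm38.p6, written 5′ to 3′ on the strand of the gene. Capitals mark ACGTG or GCGTG on either strand, so that CACGT and CACGC are the same letters read on the other strand; where ACGTG is read on both strands the run is CACGTG, the E-box bound by other factor families.
Egln3, chr12:54203875-54204124, minus strand: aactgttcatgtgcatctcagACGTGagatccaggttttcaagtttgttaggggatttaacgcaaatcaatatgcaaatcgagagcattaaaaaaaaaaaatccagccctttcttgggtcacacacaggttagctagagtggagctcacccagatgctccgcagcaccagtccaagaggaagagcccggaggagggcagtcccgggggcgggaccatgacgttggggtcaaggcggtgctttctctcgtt
Adm, chr7:110627407-110627656, plus strand: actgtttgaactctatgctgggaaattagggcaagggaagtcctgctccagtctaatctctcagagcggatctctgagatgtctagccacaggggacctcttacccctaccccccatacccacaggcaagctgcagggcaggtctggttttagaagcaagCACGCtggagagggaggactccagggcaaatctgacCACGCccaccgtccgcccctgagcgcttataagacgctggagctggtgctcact
Bnip3, chr7:138909507-138909756, minus strand: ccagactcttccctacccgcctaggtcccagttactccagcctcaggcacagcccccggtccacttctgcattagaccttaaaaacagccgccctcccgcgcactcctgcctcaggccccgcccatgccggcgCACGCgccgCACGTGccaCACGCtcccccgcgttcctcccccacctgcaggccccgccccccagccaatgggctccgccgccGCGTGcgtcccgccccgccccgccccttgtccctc
Ddit4, chr10:59951771-59952020, minus strand: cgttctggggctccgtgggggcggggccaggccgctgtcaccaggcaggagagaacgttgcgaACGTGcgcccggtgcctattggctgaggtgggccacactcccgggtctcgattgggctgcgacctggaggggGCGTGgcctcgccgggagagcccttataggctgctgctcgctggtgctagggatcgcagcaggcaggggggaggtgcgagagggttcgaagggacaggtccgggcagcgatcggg
Egln1, chr8:124949255-124949504, minus strand: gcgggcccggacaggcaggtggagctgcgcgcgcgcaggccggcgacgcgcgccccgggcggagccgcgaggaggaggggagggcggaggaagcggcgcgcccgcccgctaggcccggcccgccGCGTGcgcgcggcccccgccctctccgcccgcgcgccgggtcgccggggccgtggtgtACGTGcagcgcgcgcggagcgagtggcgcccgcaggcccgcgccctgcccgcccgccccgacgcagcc

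Bnip3 held the most matches, 5, with CACGTG starting 108 bases before the start and CACGC on both sides of it, at 117 and 99 bases, and a further GCGTG at 35 bases. The Adm window held 2 GCGTG matches on the opposite strand, at 90 and 54 bases, and no ACGTG. The Egln3 window held 1 ACGTG, at 229 bases. Ddit4 had ACGTG at 187 and GCGTG at 115 bases, and Egln1 had GCGTG at 126 and ACGTG at 68 bases. The count of matches therefore did not follow the size of the ratio: Egln1, at a log2 ratio of 0.14, held as many as Adm, at 1.52.

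Windows were found for 9 of the 10 genes (10 promoters, since Egln2 had 2); Epas1 was not matched. Of the 10 promoters 9 held ACGTG or GCGTG, the exception being Vhl. The same letters occurred in 38.6% of all 32851 promoters and in 56.5% of the 11169 promoters of measured genes. Among the 200 promoters of genes at least 2-fold higher with PC-3 medium 94, or 47%, held them. ACGTG, with or without GCGTG, was found in 6 of the 10 promoters. It was found in 42 of those 200, or 21%, and in 22.0% of promoters of measured genes. These are letter matches in a short window, not binding sites.

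Genes around the pathway were described through further lists, also chosen with earlier results of these data known, so their counts test nothing. Other non-glycolytic HIF targets were mostly slightly higher: of 33 measured, 24 had a ratio above 0, and the median log2 ratio was 0.28. Of all measured genes 44.1% had a ratio above 0, and their median was -0.04. By 2-fold or more 3 of the 33 were higher and 1 was lower, against 1.9% and 1.68% of all measured genes. Angptl4, a secreted inhibitor of lipoprotein lipase, gave 5093 with PC-3 medium and 1161 with MDA-PCa2b medium, a log2 ratio of 2.13. The haem oxygenase gene Hmox1, which is also induced by oxidative stress, gave 801.2 with PC-3 medium and 295.9 with MDA-PCa2b medium (1.44). The collagen lysyl hydroxylase gene Plod2 gave 6520 with PC-3 medium and 2422 with MDA-PCa2b medium (1.43, and 1.52 by its second probe set). Ppp1r3c, which encodes a glycogen-targeting subunit of protein phosphatase 1, went the other way, at 396.4 with PC-3 medium and 950.6 with MDA-PCa2b medium (-1.26, and -1.20 by its second probe set).

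Some well-known HIF targets were picked after their values were seen. The angiogenic factor gene Vegfa gave 775.4 with PC-3 medium and 486.9 with MDA-PCa2b medium, a log2 ratio of 0.67 (0.56 by its second probe set), above the list's median. Others differed little. The carbonic anhydrase gene Car9 gave 283.7 with PC-3 medium and 316.7 with MDA-PCa2b medium (-0.16). Ankrd37, a gene of an ankyrin repeat protein, gave 237.1 with PC-3 medium and 238.6 with MDA-PCa2b medium (-0.01). The listed targets thus had ratios on both sides of 0. Lists share genes: Plod2, for example, is also in the hydroxylase family list.

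Among other HIF subunits and regulators 0 of 13 measured genes differed 2-fold in either direction, and the median log2 ratio was 0.10. That count lies near the shares of all measured genes, 1.9% higher and 1.68% lower. The largest ratios were those of Hif3a, which encodes a further HIF-alpha protein (0.64, signals 105.2 with PC-3 medium and 67.4 with MDA-PCa2b medium, close to the floor), and Arnt2, a relative of Arnt (-0.59, signals 244.2 with PC-3 medium and 368.7 with MDA-PCa2b medium). The 5 partners of Vhl in its ligase complex had log2 ratios from -0.25 to 0.10 by their brightest probe sets, with a median of -0.09. A count of 0 of 5 at 2-fold lies near the shares of all measured genes. Cul2, the scaffold subunit, gave -0.25 (-0.57 by its second probe set), and Nedd8, the modifier that activates cullins, gave -0.15.

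The Egln enzymes belong to the 2-oxoglutarate oxygenases, a family that also holds collagen hydroxylases and histone and DNA demethylases. Of 28 other measured family genes 1, Plod2, was higher by 2-fold or more and 0 were lower by that factor. These counts lie near the shares of all measured genes, 1.9% higher and 1.68% lower. The median log2 ratio of the 28 was 0.04. Hif1an, which encodes the asparaginyl hydroxylase FIH that blocks HIF coactivator binding, gave 238.7 with PC-3 medium and 247.0 with MDA-PCa2b medium (-0.05); it was chosen after its value was seen.

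Genes that act with the 3 targets were also described. In the list of adrenomedullin receptor parts and related peptides, 5 genes were measured, with a median of -0.01. Ackr3, an atypical chemokine receptor gene whose product also takes up adrenomedullin, gave 2867 with PC-3 medium and 924.7 with MDA-PCa2b medium, a log2 ratio of 1.63. Ramp1, which with Calcrl forms the receptor for the related peptide CGRP, gave 318.9 with PC-3 medium and 831.7 with MDA-PCa2b medium (-1.38). Ramp2 and Ramp3, 2 further receptor parts, were chosen after their values were seen. Ramp2 gave 275.6 with PC-3 medium and 177.1 with MDA-PCa2b medium (0.64), and Ramp3 gave -0.01. Of the 5 genes 2 had a ratio above 0, against 44.1% of all measured genes. Calcrl, the receptor gene shared by both peptides, was below the floor on both arrays by each of its probe sets.

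In the mTORC1 list around Ddit4, 0 of 15 measured genes were higher and 1 was lower by 2-fold or more, and the median was -0.02. Over all measured genes the shares were 1.9% higher and 1.68% lower. The lower gene was Sesn2, another stress-induced mTORC1 inhibitor, at 126.7 with PC-3 medium and 304.6 with MDA-PCa2b medium (-1.27), although its second probe set gave -0.22. Ddit4l, the paralogue of Ddit4, was chosen after its values were seen; it gave 1392 with PC-3 medium and 769.6 with MDA-PCa2b medium (0.86, and 0.69 and 0.84 by its other probe sets). Of 14 measured mitophagy genes and Bnip3 partners 0 differed 2-fold, a count near the shares of all measured genes, with a median of 0.04. The largest were Bcl2, an anti-apoptotic partner of Bnip3 (-0.59), and the autophagosome gene Map1lc3b (0.45).

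**Figure D4:**
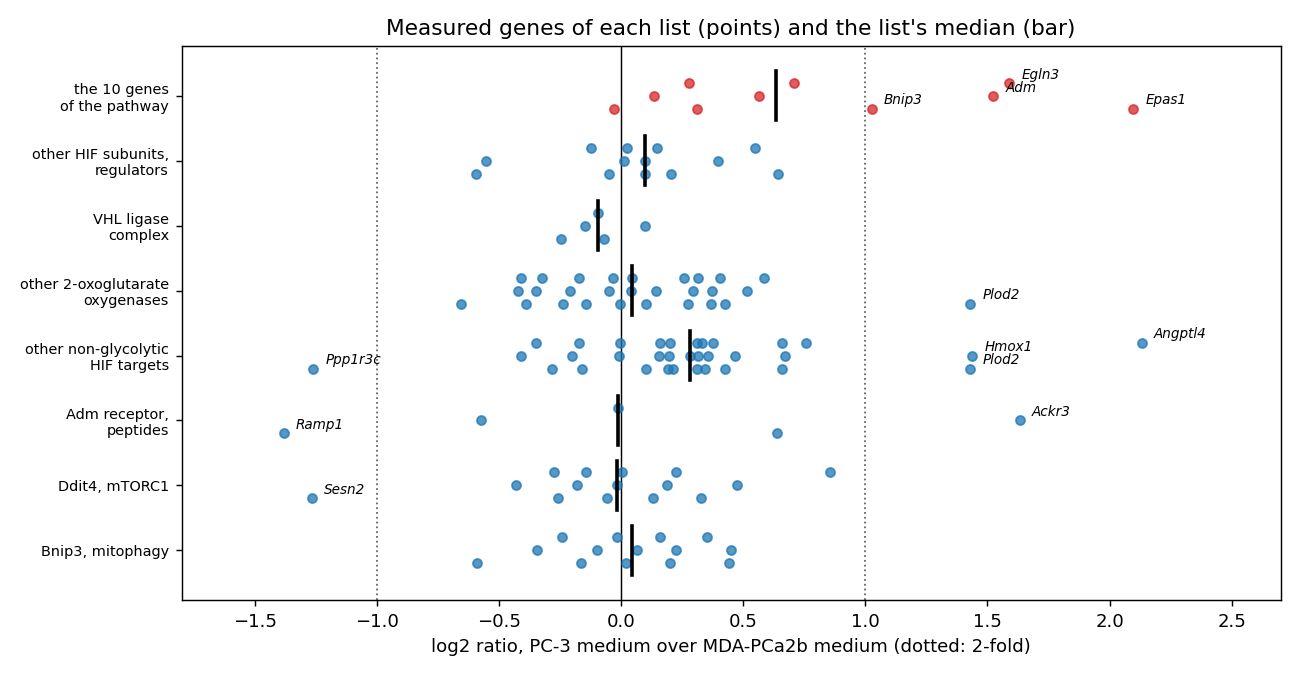
Log2 ratio of PC-3 medium over MDA-PCa2b medium for the measured genes of each list (points, spread vertically only for legibility), with the list's median as a bar and dotted lines at 2-fold; genes beyond 2-fold are named. The 10 pathway genes have a median of 0.63, other non-glycolytic HIF targets 0.28 and the VHL ligase complex -0.09.

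Marker genes were read beside these values, since Epas1 and Adm are also strongly expressed in endothelial cells and Epas1 in some macrophages. All 10 osteoblast markers with a probe set exceeded the floor in both cultures, with summed signals of 91395 with PC-3 medium and 99853 with MDA-PCa2b medium; the sum is carried by collagen and matrix genes such as Col1a1 and Sparc. None of the 10 had a ratio above 0, against 44.1% of all measured genes, and the median log2 ratio was -0.23. Col1a1, Col1a2 and Sparc lay above the median of all measured genes, -0.04, and so above 0 once that median was set to 0. Ifitm5 (-2.58) and Dlx5 (-1.32) were at least 2-fold lower, followed by Sp7 (-0.68), Alpl (-0.41) and Pth1r (-0.35). Of 12 endothelial markers 10, among them Pecam1, Cdh5, Kdr, Tek and Vwf, were below the floor on both arrays. The other 2, Eng (0.24) and Erg (0.04), differed little, and the list summed to 1304 with PC-3 medium and 1153 with MDA-PCa2b medium. Macrophage and osteoclast markers were present, with 11 of 12 measured in both cultures and 0 differing 2-fold. They summed to 24034 with PC-3 medium and 23576 with MDA-PCa2b medium, and 8 of the 11 had a ratio above 0. Of all measured genes 44.1% had a ratio above 0, 1.9% were higher by 2-fold or more and 1.68% lower. The largest ratios were those of Fcgr1 (0.82) and Cd68 (0.59), while Ptprc (-0.23) and Csf1r (-0.19) lay below 0 and Ctsk (-0.02) was close to it. Adipocyte markers summed to 2827 with PC-3 medium and 3095 with MDA-PCa2b medium, with 3 measured: Fabp4 (0.98) and Adipoq (0.47) were above 0 and Lpl (-0.33) below it. Pparg lay at 60.7 with MDA-PCa2b medium, just above the floor, and at 38.3 with PC-3 medium, below it, so that its ratio could not be measured. Of 5 red blood cell markers 4 were below the floor on both arrays. The fifth, Epor, was near it, above with PC-3 medium (77.6) and below with MDA-PCa2b medium (34.0). The list summed to 154.3 with PC-3 medium and 88.9 with MDA-PCa2b medium. The part of the macrophage and adipocyte genes in the Epas1 and Hif1a ratios was not tested.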

How the data were processed

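Total RNA of 2 osteoblast cultures was labelled from 5 µg and hybridised to 1 array each, per the labels. Groups came from the source description, since 1 title (that of PC-3) also contains letters of the other line. The deposited files give each probe set's intensity on a linear scale; per the submitters' processing notes the authors used GCOS 1.4 and MAS5. The scaling target and any detection calls are not given in the sources used here; both arrays had a mean of 299.9 without the lowest and highest 2%. The number of arrays limits the precision, and no test between media was possible.

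After 64 control probe sets were removed, signals below the 50th percentile of the array were set to it and log2 was taken (Python 3.11.15, pandas 2.3.3). Ratios are log2 differences, PC-3 medium minus MDA-PCa2b medium, and the brightest probe set stands for its gene. Of all probe sets 34958 had 1 gene in the annotation, 932 several and 9211 were not listed; a name in a list without a single-gene probe set was not analysed here. The 10 genes and the 12 further lists were chosen with earlier results of these data known. In each list the genes at least 2-fold different were named, at most 4, or otherwise the 2 largest, and others are said to be chosen after their values were seen. Alternatives tried were a floor at the 25th or the 75th percentile, log2(signal + 16), quantile normalisation, centring, averaging of probe sets, leaving out probe sets marked _s, _x or _a, and thresholds of 1.5-fold and 3-fold. The scripts were tested on simulated data. Promoter sequences are RefSeq's.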

Additional observations from a re-analysis of the deposited data

How the results depend on the processing

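A log2 value was said to move when it shifted by more than the probe set SD of 0.24, and a count when it changed by more than 1.5 times. Of 171 values under alternatives 159 did not move, 12 moved and 0 values beyond 2-fold changed sign. Over 7 alternatives the log2 ratio ran from 2.08 to 2.14 for Epas1, 1.49 to 1.63 for Egln3 and 1.02 to 1.06 for Bnip3. It ran from 0.70 to 0.75 for Ddit4. That of Egln2 ran from -0.03 to 0.01, above 0 once the median of all genes was set to 0. For Epas1, Bnip3, Ddit4 and Egln2 the ratio rested on a single unmarked probe set above every floor tried. The other floors, averaging and leaving out marked sets could therefore not change it. These narrow ranges, and part of the 159 unmoved values, were thus fixed in advance. Hif1a gave 0.84 with probe sets averaged and 0.89 without probe sets marked _s, _x or _a, a group that includes sets shared by transcripts of the same gene. Adm gave 1.27, a bound, without these marked sets, which left 3 genes at least 2-fold higher, and had no value under the 75th-percentile floor. With that floor 2 of 8 measured genes, Epas1 and Bnip3, were at least 2-fold higher, and Egln3 was higher as a bound (1.52); at a threshold of 3-fold the count was 2, Epas1 and Egln3, and at 1.5-fold it was 5. The genes on the array at least 2-fold higher numbered 202 as reported, 426 under the lower floor (25th percentile), 90 under the higher floor (75th percentile) and 527 with log2(signal + 16), and those at least 2-fold lower 179, 382, 56 and 436. The adrenomedullin receptor median was -0.58 under the higher floor and -0.58 without the marked sets. The adipocyte median was 0.066 under the lower floor, -0.33 under the higher floor, 0.086 with log2(signal + 16) and 0.066 without the marked sets, and the endothelial median was -0.20 under the lower floor. These lists hold few measured genes; the cause was not tested. No paired analysis was possible because each medium had 1 array.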

Other observations

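Probe sets of the same gene disagreed for some regulators outside the 10 genes, picked after their values were seen. Cited2 encodes a HIF-induced protein that competes with HIF-alpha for its coactivators. Its brighter probe set gave 522.3 with PC-3 medium and 513.3 with MDA-PCa2b medium, a log2 ratio of 0.03. Its other probe set gave 136.1 with PC-3 medium and 60.3, near the floor, with MDA-PCa2b medium, a log2 ratio of 1.17. The histone demethylase gene Kdm5a gave 0.14 by its brightest probe set and 0.24 to 1.10 by its others. The platform annotation does not say which transcript forms these probe sets read.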
